A study of Pan troglodytes with 6 samples.

Results

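The genes described here encode enzymes that break down amino acids, together with the urea cycle, which turns the ammonia set free by that breakdown into urea. They were chosen by name, 49 genes in all, and a gene was used where the array's annotation gave its symbol alone. That held for 37 genes, among the 12584 genes named in this way and the 15143 features on the array. The other 12, ARG2, KMO, AFMID, BHMT, BHMT2, HPD, HGD, SDS, AMT, GPT2, BCKDHA and BCAT1, were left out of the main results. Of these, 6 stand only in features with several symbols, and entered 1 alternative through 5 such features. RNA came from cerebellum and liver of chimpanzees (Pan troglodytes), with 3 arrays per tissue labelled as biological replicates, and was hybridised to Affymetrix Human Exon 1.0 ST arrays, whose probes follow the human genome. In both tissues the labels give replicate 1 as female and aged 27 years, and replicates 2 and 3 as male and aged 37 and 30 years. No treatment is named. The labels do not say whether both tissues of a number came from the same animal.

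The liver is the main site at which most amino acids are degraded, and in mammals it is the organ with a complete urea cycle. Its hepatocytes carry nitrogen from amino acids into carbamoyl phosphate and aspartate and release it as urea. Branched-chain amino acids differ in that their first step, transamination, takes place largely outside the liver. The brain needs the same chemistry for other ends, such as the methyl groups of S-adenosylmethionine, the transmitter glycine and the nitrogen of glutamate.

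The deposited values are intensities that had been made alike in distribution across the 6 arrays, with a median of 96.3. Values are given as intensities for replicates 1, 2 and 3 in that order, or as mean ± SD (n = 3 per tissue). Differences are cerebellum minus liver of log2(intensity + 16.8), the pseudocount being the 10th percentile over the arrays. Adjusted p values come from limma over all 15143 features, with a threshold of 0.05. The tissue labels were borne out by defining markers. SNAP25, a synaptic protein, was at 4700.1, 3676 and 4194 in cerebellum and 28.1, 28.3 and 15.9 in liver, and ALB, which encodes albumin, was at 48.1, 48.5 and 17.6 in cerebellum and 3746, 4040.2 and 4107 in liver. All 10 measured neuronal markers were higher in cerebellum and all 10 measured hepatocyte markers were higher in liver. With bulk tissue, fewer cells of a type and less RNA per cell cannot be told apart.

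Of the 37 genes, 31 were lower in cerebellum than in liver, 2 were higher, MAT2A and BCAT2, and 4 did not pass, NAGS, OAT, BCKDHB and HIBCH. Over all features 50.6% were called, 23.9% lower and 26.7% higher in cerebellum. These are also the shares to set beside the counts of calls per pathway below. The difference was at least 2-fold for 29 of the 31, against 15.8% of all features, and for 0 of the 2 higher genes, against 17.2%. It was -3 or lower for 19, against 3.56%. The median log2 difference was -3.09 over the 37 genes and 0.037 over all features. The 3 values per tissue did not overlap, with cerebellum lower, for 29 genes, against 28.5% of all features, and with cerebellum higher for 2, against 31.0%. The median of the 37 intensities lay between 50.7 and 58.3 on the cerebellum arrays and between 427 and 710 on the liver arrays. Aligning the arrays on 60 ribosomal protein, proteasome and respiratory chain genes moved the median of all features from 0.037 to 0.47 and the share of calls that were higher in cerebellum from 52.8% to 73.5%. Under that alignment 27 genes were lower and 2 higher, the calls of CBS, AASS, DBT and MCCC1 being lost at log2 differences of -0.77, -1.35, -0.53 and -0.51 (limma adjusted p from 0.0801 to 0.0883).

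**Figure D1:**
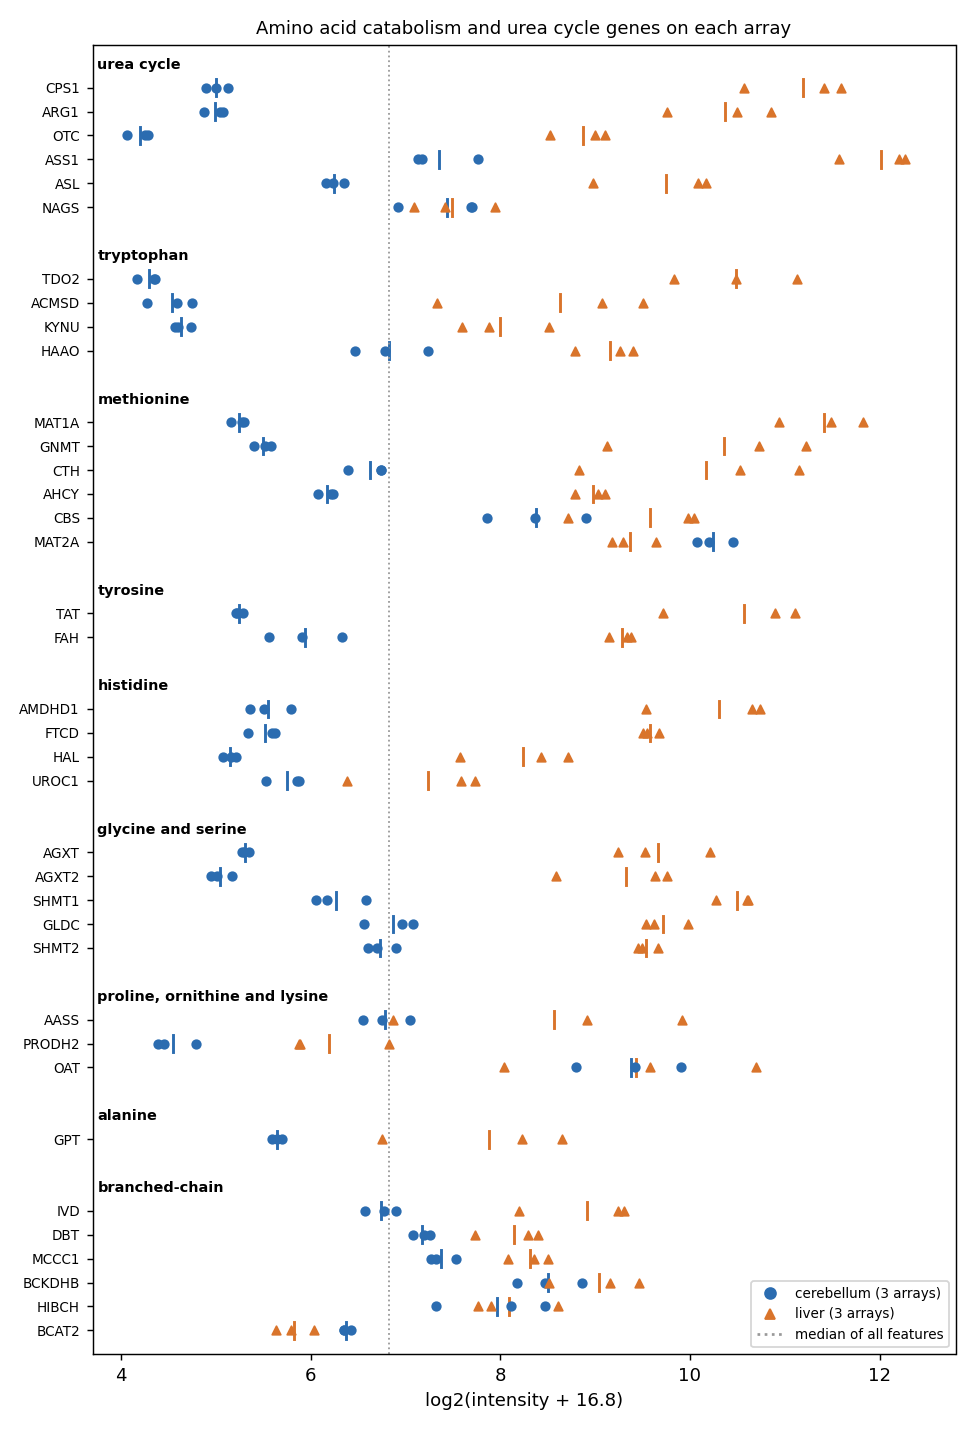
Intensity of the 37 measured genes on each of the 6 arrays, as log2(intensity + 16.8), grouped by pathway. Points are arrays and short bars are tissue means. In most rows the cerebellum points lie left of the liver points, and MAT2A and BCAT2 lie the other way. NAGS, OAT, BCKDHB and HIBCH overlap, as do CBS and AASS, which were called lower.

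Of 6 measured genes of the urea cycle, 5 were lower in cerebellum and 0 higher, with a median of -4.66. CPS1 (feature 2525989), the mitochondrial synthase that commits ammonia to the cycle, was at 18.2, 15.3 and 12.9 in cerebellum, against 3077, 2715 and 1503 in liver, giving a log2 difference of -6.19 (SE 0.27, limma adjusted p = 5.80e-07). Its cerebellum values sat near the pseudocount, and liver replicate 3 was the lowest liver, at -0.94 on the log2 scale against the mean of the other 2. OTC, which joins carbamoyl phosphate to ornithine, was at 2.34, 2.72 and -0.573 in cerebellum, against 496, 350.4 and 532 in liver (-4.67). ASS1 and ASL, the cytosolic pair that brings in aspartate and releases arginine and fumarate, had all cerebellum values above the pseudocount. ASS1 averaged 151 ± 43.8 in cerebellum and 4208 ± 1031 in liver (-4.66), and ASL averaged 59.3 ± 5.03 in cerebellum and 896 ± 357 in liver (-3.50). ARG1, the cytosolic arginase that yields urea, averaged 15.2 ± 2.33 in cerebellum and 1371 ± 495 in liver (-5.37). Adjusted p for these 5 genes lay between 5.51e-07 for OTC and 2.87e-05 for ASL (limma), and the tissues did not overlap for any of them.

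NAGS, which makes the activator that CPS1 requires, was not called. It was at 189, 104 and 191 in cerebellum, against 230.3, 154 and 119.8 in liver, and the tissues overlapped. The fitted log2 value was -0.051 (SE 0.29, limma adjusted p = 0.899), and its sign was positive with arrays aligned on the general genes (0.38). Of 4 measured partners of the cycle, 2 were lower in cerebellum and 1 higher, against 23.9% and 26.7% of all features. SLC7A2, a cationic amino acid transporter, was the largest of the lower ones at 97.3, 162 and 49.6 in cerebellum and 1124, 1492 and 454 in liver (-3.08, limma adjusted p = 7.85e-04). The higher one was GLUL, glutamine synthetase, at 5389, 4900.0 and 5922 in cerebellum and 1864, 2557 and 2203 in liver (1.29, limma adjusted p = 4.93e-04). Glutamine synthesis is the other route by which ammonia is fixed, and in the brain it belongs to astrocytes.

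All 4 measured genes of the kynurenine pathway, which degrades tryptophan, were lower in cerebellum, with a median of -3.73. TDO2 (feature 2749011), the dioxygenase that opens the tryptophan ring in liver, was at 3.74, 1.24 and 3.53 in cerebellum, against 2215, 1417 and 894 in liver, giving a log2 difference of -6.19 (SE 0.30, limma adjusted p = 1.03e-06). The 3 cerebellum values lay far below the pseudocount, and the 3 livers differed among themselves, replicate 1 being the highest. KYNU, which cleaves kynurenine and hydroxykynurenine, averaged 8.15 ± 1.62 in cerebellum and 248 ± 90.0 in liver (-3.36). HAAO, which makes the precursor of quinolinic acid, was the one with all cerebellum values above the pseudocount, at 99.7 ± 31.8 in cerebellum, against 561 ± 120.4 in liver (-2.32). ACMSD, which diverts that precursor away from quinolinic acid and NAD, averaged 6.68 ± 3.78 in cerebellum and 458 ± 288 in liver (-4.10), and its livers ran from 144 to 709.8. Without liver replicate 3 its difference was -4.75. Adjusted p for the 4 genes lay between 1.03e-06 for TDO2 and 1.80e-04 for ACMSD (limma). Of 5 measured further genes of tryptophan breakdown, 3 were lower in cerebellum and 0 higher, and the largest was AADAT, an aminotransferase of kynurenine and aminoadipate, at 18.5, 18.0 and 14.8 in cerebellum and 204, 193 and 99.3 in liver (-2.37, limma adjusted p = 9.95e-05). For TDO2, OTC, KYNU, ACMSD and PRODH2 all 3 cerebellum values were below 16.8, so the size of their differences, and their order among genes, depends on the pseudocount. TDO2 differed by -6.77 with the pseudocount at the 5th percentile and by -5.45 at the 20th. CPS1, ARG1 and AGXT2 each had 2 cerebellum values below 16.8, and the size of their differences carries the same limit. ARG1 differed by -5.70 with the pseudocount at the 5th percentile and by -4.88 at the 20th.

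In the methionine cycle the liver and general forms of one enzyme went opposite ways. Methionine adenosyltransferase makes S-adenosylmethionine, the cell's methyl donor, and MAT1A encodes its form of the adult liver whereas MAT2A encodes the form of other tissues. MAT1A (feature 3297632) was at 22.6, 19.1 and 22.1 in cerebellum, against 2852, 3611 and 1949 in liver, giving a log2 difference of -6.17 (SE 0.24, limma adjusted p = 3.29e-07). MAT2A (feature 2491615) was at 1388, 1161 and 1063 in cerebellum, against 609, 562 and 779.7 in liver, giving a log2 difference of 0.88 (SE 0.20, limma adjusted p = 0.00555). The tissues did not overlap for either gene. Within an array, log2 MAT1A minus log2 MAT2A was -5.16, -5.04 and -4.80 in cerebellum and 2.20, 2.65 and 1.30 in liver. That quantity therefore differed by -7.05 between tissues, and an exact two-sided permutation test gave p = 0.1, the smallest that 3 against 3 arrays can give. The cerebellum values of MAT1A lay near the pseudocount, so the size of that difference depends on it. Liver replicate 3 had the lowest MAT1A value and the highest MAT2A value of the 3 livers.

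The steps that use S-adenosylmethionine and its product were lower in cerebellum too. GNMT, glycine N-methyltransferase, which disposes of excess methyl groups, averaged 28.6 ± 2.85 in cerebellum and 1531 ± 922 in liver (-4.86). AHCY, which splits S-adenosylhomocysteine and is needed wherever methylation takes place, averaged 55.7 ± 4.33 in cerebellum and 488 ± 55.5 in liver (-2.80). Homocysteine leaves the cycle through CBS and CTH, the transsulfuration enzymes that yield cysteine. CTH averaged 82.7 ± 13.4 in cerebellum and 1385 ± 911 in liver (-3.54). Without liver replicate 3 the log2 difference was -4.21 for CTH and -5.48 for GNMT. CBS had the smallest difference of the 5 lower genes of this pathway, at 215, 461 and 314 in cerebellum and 1039, 993 and 404 in liver (-1.20, limma adjusted p = 0.0324), with replicate 2 of cerebellum above replicate 3 of liver. Leaving out either cerebellum 1, cerebellum 3, liver 1 or liver 2 ended the call of CBS (limma adjusted p 0.0821 to 0.115). Adjusted p for GNMT, AHCY and CTH was 4.51e-05, 3.25e-06 and 5.10e-04 (limma). Of 14 measured further genes of methyl and sulfur metabolism, 10 were lower in cerebellum and 0 higher, and the largest was NNMT, a methyltransferase of nicotinamide, at 24.5, 12.1 and 21.7 in cerebellum and 2310.4, 3233 and 1112 in liver (-5.84).

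Tyrosine and histidine breakdown were lower in cerebellum throughout the measured genes. TAT (feature 3697712), the aminotransferase that starts tyrosine breakdown and is known for its induction by glucocorticoids, was at 20.6, 22.3 and 20.2 in cerebellum, against 2189.6, 1887 and 822 in liver, giving a log2 difference of -5.33 (SE 0.34, limma adjusted p = 4.27e-06). Its livers were uneven, the mean of replicates 1 and 2 being 2.48 times replicate 3. FAH, the last enzyme of the route, averaged 45.9 ± 16.8 in cerebellum and 608 ± 51.0 in liver (-3.35), with livers close together. Of 5 measured further genes of phenylalanine and tyrosine metabolism, 3 were lower in cerebellum and 0 higher, led by DDC, aromatic amino acid decarboxylase, at 26.2, 21.9 and 32.5 in cerebellum and 465, 359 and 303 in liver (-3.15).

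All 4 enzymes that carry histidine to glutamate and a one-carbon unit were measured and lower in cerebellum, with a median of -3.58. In the order of the route, HAL, histidine ammonia-lyase, averaged 18.8 ± 1.72 in cerebellum and 302 ± 117 in liver (-3.09). UROC1, urocanate hydratase, averaged 37.6 ± 7.05 in cerebellum and 146 ± 69.8 in liver (-1.48). AMDHD1, imidazolonepropionase, was the largest at 28.7, 38.6 and 24.4 in cerebellum, against 1599.7, 1689 and 726 in liver, giving a log2 difference of -4.76 (SE 0.32, limma adjusted p = 5.95e-06). FTCD, which passes the formimino group to folate, averaged 29.3 ± 4.75 in cerebellum and 749 ± 47.0 in liver (-4.06). The tissues did not overlap for any of the 4, and adjusted p lay between 4.48e-07 for FTCD and 0.00677 for UROC1 (limma). Of 4 measured further genes of histidine metabolism, 3 were lower in cerebellum, the largest being HNMT, which methylates histamine, at 82.0, 158 and 74.0 in cerebellum and 718, 874 and 909.6 in liver (-2.87).

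Among the genes of glycine, serine and glyoxylate all 5 measured were lower in cerebellum, with a median of -4.23. AGXT (feature 2535976), which detoxifies glyoxylate to glycine, was at 21.9, 24.1 and 22.5 in cerebellum, against 1170.4, 721 and 588 in liver, giving a log2 difference of -4.35 (SE 0.25, limma adjusted p = 2.60e-06). AGXT2, an aminotransferase of glyoxylate and methylated arginines, was at 14.1, 19.3 and 15.5 in cerebellum, against 777, 847 and 367 in liver (-4.28). Within an array log2 AGXT minus log2 AGXT2 was 0.26 ± 0.076 in cerebellum and 0.34 ± 0.49 in liver (SD, n = 3 each), and the tissues overlapped (difference -0.076, exact two-sided permutation p = 1). The cerebella lay between 0.18 and 0.32 and the livers at 0.58, -0.23 and 0.66, so the overlap rested on liver replicate 2. In cerebellum both genes lay near the pseudocount, with 2 values of AGXT2 below it. The cerebellum figure and its SD therefore depend on the pseudocount. GLDC, the decarboxylase of the glycine cleavage system, averaged 101 ± 20.8 in cerebellum and 829.7 ± 145 in liver (-2.84).

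Serine hydroxymethyltransferase interconverts serine and glycine in the cytosol (SHMT1) and in mitochondria (SHMT2). SHMT1 was at 78.8, 49.8 and 55.4 in cerebellum, against 1539, 1544 and 1221 in liver (-4.23, limma adjusted p = 9.29e-07). SHMT2 was at 103, 87.3 and 80.4 in cerebellum, against 703, 795 and 684 in liver (-2.80, limma adjusted p = 3.30e-06). Within an array, log2 SHMT1 minus log2 SHMT2 was -0.32, -0.64 and -0.43 in cerebellum and 1.11, 0.94 and 0.82 in liver. That quantity differed by -1.42 between the tissues, without overlap (exact two-sided permutation p = 0.1, the smallest possible), SHMT1 being the one with the larger gap. Of 13 measured further genes of glycine, serine and choline metabolism, 9 were lower and 1 was higher in cerebellum. DMGDH, dimethylglycine dehydrogenase, was the largest of the lower ones at 14.9, 14.7 and 12.6 in cerebellum and 916, 722 and 351 in liver (-4.36). SRR, the racemase that makes D-serine, a co-agonist of brain glutamate receptors, was the higher one at 73.8, 135 and 99.2 in cerebellum and 28.2, 51.3 and 67.0 in liver (0.88, limma adjusted p = 0.0288).

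Genes of proline, ornithine, lysine and alanine breakdown had smaller differences or wide spread among the livers. PRODH2, which oxidises hydroxyproline, averaged 6.80 ± 3.65 in cerebellum and 60.4 ± 31.5 in liver (-1.65, limma adjusted p = 0.00127). OAT, ornithine aminotransferase, which links ornithine to proline and glutamate, was at 429, 944 and 669 in cerebellum, against 1639, 747 and 245 in liver. The cerebellum values lay inside the range of the livers, and the fitted log2 value was -0.058 (SE 0.60, limma adjusted p = 0.944). Its sign was positive with arrays aligned on the general genes (0.37), without liver replicate 1 (0.57) or 2 (0.012) and without cerebellum replicate 1 (0.23). AASS (feature 3070183), which opens lysine breakdown, had the largest difference of the proline, ornithine and lysine genes on the log2 scale, at 115, 77.3 and 91.2 in cerebellum, against 948, 466 and 99.8 in liver (-1.78, SE 0.65, limma adjusted p = 0.048). Replicate 3 of liver lay among the cerebella. That call was lost without liver replicate 1 (-1.10, limma adjusted p = 0.128) or 2 and without any 1 of the cerebella (limma adjusted p 0.0841 to 0.141), and it was -2.63 without liver replicate 3 (limma adjusted p = 3.21e-04). GPT, cytosolic alanine aminotransferase, was at 35.1, 31.6 and 33.4 in cerebellum, against 386, 284 and 91.4 in liver (-2.23, limma adjusted p = 0.00249). All 6 measured further genes of proline and lysine metabolism were lower in cerebellum, and the largest was ALDH4A1, which turns the proline intermediate into glutamate, at 28.7, 34.4 and 32.5 in cerebellum and 860.5, 506 and 662 in liver (-3.80).

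**Figure D2:**
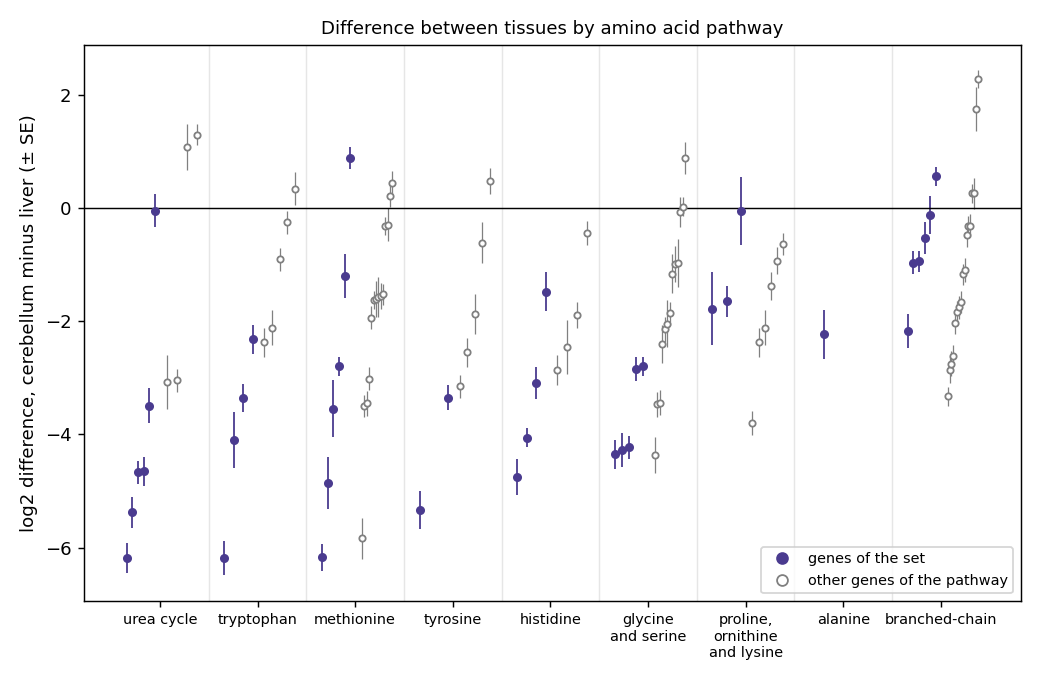
Log2 difference of each gene, cerebellum minus liver, with its limma standard error. Filled points are the 37 genes of the set and open points are further genes of the same pathways, by amino acid pathway. Filled points of the branched-chain group lie nearer to 0, with a median of -0.74, than those of the urea cycle, with a median of -4.66. The open points of these groups do not show that order, with medians of -1.18 and -0.98.

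Breakdown of branched-chain amino acids included calls in both directions. Of 6 measured genes of the set, 3 were lower and 1 was higher in cerebellum, against 23.9% and 26.7% of all features. The median difference was -0.74. BCAT2 (feature 3867415), the mitochondrial aminotransferase of the first step, was at 65.1, 64.9 and 69.1 in cerebellum, against 33.0, 38.7 and 48.8 in liver, giving a log2 difference of 0.56 (SE 0.17, limma adjusted p = 0.0257). Each cerebellum value was above each liver value, yet all 6 were below the array median. Leaving out either cerebellum 1, cerebellum 3, liver 1 or liver 2 ended the call (limma adjusted p 0.0659 to 0.0933), and the difference was 0.99 with arrays aligned on the general genes.

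The second step is the branched-chain keto acid dehydrogenase complex, which commits the carbon skeleton to breakdown. Its subunit BCKDHB was at 449, 273 and 338 in cerebellum, against 687, 554 and 349 in liver (-0.54, SE 0.28, limma adjusted p = 0.145). Replicate 3 of liver lay within the cerebellum range, and without it the difference was -0.80 (limma, adjusted p = 0.0261). DBT, the transacylase core of the complex, averaged 128 ± 8.83 in cerebellum and 271 ± 66.2 in liver (-0.96, limma adjusted p = 0.00512). The kinase that turns the complex off and the phosphatase that turns it on are named here after their values were seen. BCKDK, the kinase, was at 67.7, 79.8 and 66.5 in cerebellum and 129.7, 179 and 217 in liver (-1.10, limma adjusted p = 0.00241). PPM1K, the phosphatase, was at 485, 555 and 570.3 in cerebellum and 317, 108 and 89.6 in liver (1.75, limma adjusted p = 0.00566). The kinase was thus lower and the phosphatase higher in cerebellum, and the tissues did not overlap for either gene.

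After the complex the routes part. For leucine, IVD, isovaleryl-CoA dehydrogenase, was the largest of the set's branched-chain genes at 92.5, 102 and 78.3 in cerebellum, against 618, 589 and 276 in liver, giving a log2 difference of -2.17 (SE 0.30, limma adjusted p = 4.03e-04). MCCC1, a subunit of the carboxylase of the next step, averaged 149 ± 16.4 in cerebellum and 303 ± 47.1 in liver (-0.94). For valine, HIBCH, a hydrolase of the route, was at 337, 143 and 260.0 in cerebellum, against 375, 222 and 201 in liver, and the tissues overlapped (-0.12, SE 0.33, limma adjusted p = 0.78). The sign of HIBCH was positive with arrays aligned on the general genes (0.31), with array weights (0.078) and without cerebellum replicate 2 (0.20) or liver replicate 1 (0.14).

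Of 17 measured further genes listed with branched-chain breakdown, 10 were lower and 2 higher in cerebellum, with a median of -1.18. The 2 higher ones were the phosphatase PPM1K and OXCT1, an enzyme of ketone body use, rather than enzymes of the steps described above. ACADSB, the acyl-CoA dehydrogenase of isoleucine, was the largest of the lower ones at 168, 186 and 158 in cerebellum and 2072, 1919.7 and 1622 in liver (-3.33, limma adjusted p = 1.43e-06). The largest of the higher ones was OXCT1, the transferase by which tissues other than liver burn ketone bodies, at 141, 142 and 141 in cerebellum and 14.3, 13.7 and 19.9 in liver (2.28, limma adjusted p = 8.16e-06). Its 3 cerebellum values were nearly equal. Over all pathways, 66 further genes were measured of 92 listed, with a median of -1.59. Of these, 44 were lower and 4 higher in cerebellum, against 23.9% and 26.7% of all features.

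**Figure D3:**
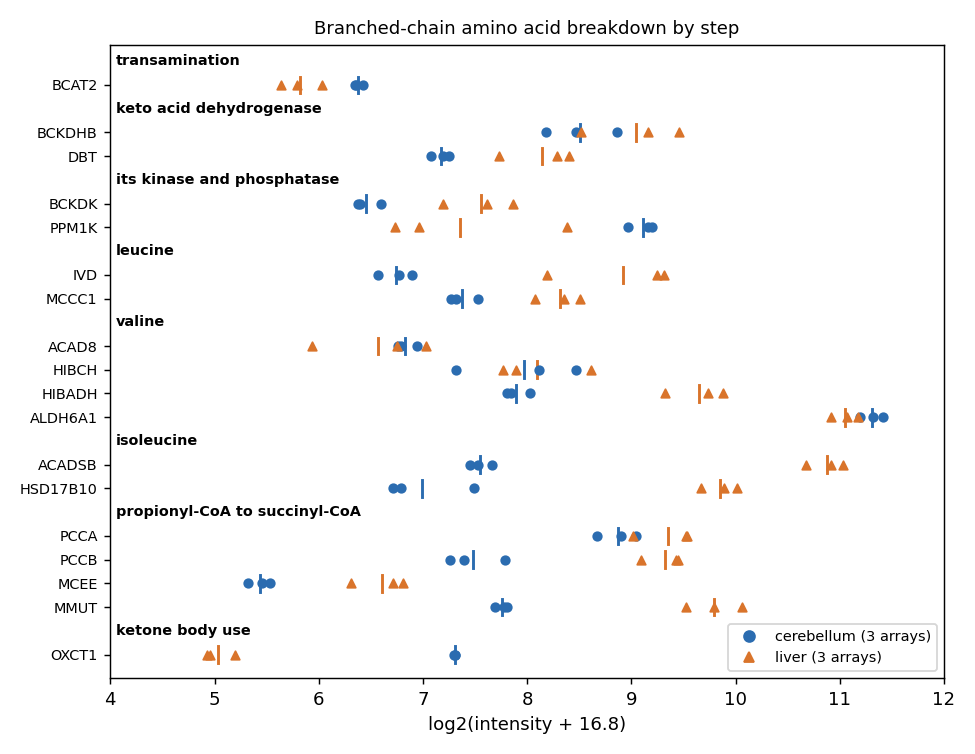
Branched-chain amino acid breakdown by step, with each gene's value on each of the 6 arrays as log2(intensity + 16.8); short bars are tissue means. BCAT2, PPM1K, OXCT1 and ALDH6A1 have every cerebellum point to the right of every liver point, ALDH6A1 without being called. BCKDK, DBT, IVD, MCCC1, HIBADH, ACADSB, HSD17B10, PCCB, MCEE and MMUT have them to the left.

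For 9 of the 37 genes all 3 cerebellum values exceeded the array median of 96.3, and this held for 43.6% of all features. For 5 genes all 3 were below the pseudocount, against 7.07% of all features. The 9 were BCKDHB, DBT, HIBCH and MCCC1 of the branched-chain route, MAT2A and CBS of the methionine cycle, ASS1 and NAGS of the urea cycle, and OAT. Cerebellum replicate 2 was above the mean of the other 2 cerebella by 0.80 on the log2 scale for OAT, 0.79 for CBS, 0.62 for ASS1 and 0.59 for FAH, and lay at -0.97 against that mean for HIBCH and at -0.78 for NAGS. The 6 measured markers of astrocytes and Bergmann glia lay at a median of 0.61 on the same array, with a summed intensity of 12245, against 7331 and 9015 in cerebellum replicates 1 and 3. GFAP, a defining marker of astrocytes, was at 475, 828 and 304 in cerebellum. Markers of macrophages lay at 0.54 on that array, those of fibroblasts at 0.45 and those of endothelium at 0.45. Oligodendrocyte markers lay at -0.37 on that array and at 0.89 in cerebellum replicate 1, with sums of 5930, 1865 and 2449 in cerebella 1, 2 and 3. Most of each sum came from MBP, at 4297, 966 and 1481. UGT8 was also lowest in replicate 2, but MAG, CNP and CLDN11 were lowest in replicate 3 and OLIG2 in replicate 1. The part of these markers in the values of OAT, CBS, ASS1, FAH, HIBCH and NAGS was not tested. Over all 37 genes the median of cerebellum replicate 2 was -0.038.

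The median SD of a gene's 3 log2 values was 0.15 in cerebellum and 0.50 in liver over the 37 genes, and 0.20 in cerebellum and 0.26 in liver over all features. Liver replicate 3 gave the lowest of the 3 liver values for 32 of the 37 genes, against 37.4% of all features, and liver replicate 1 the highest for 24, against 34.1%. For 14 genes the ratio of liver replicate 3 to the mean of the other 2 livers was under 0.5, against 6.53% of features. The size of this gap ranged widely. The mean of liver replicates 1 and 2 was 7.08 times replicate 3 for AASS, 4.86 for OAT, 4.27 for ACMSD, 4.23 for CTH, 3.73 for GNMT and 3.67 for GPT. It was 1.16 times for FAH, 1.10 for SHMT2 and 1.08 for FTCD. OTC, GLDC, MAT2A and BCAT2 were highest in replicate 3, and UROC1, highest in replicate 1, was lowest in replicate 2.

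Set against the mean of the other 2 livers, the median shift of the 37 genes was 0.60 in replicate 1, 0.19 in replicate 2 and -0.66 in replicate 3. The 3 shifts of a gene balance, so opposite signs are partly built in. In replicate 3 it was -2.10 for the proline, ornithine and lysine genes, -1.69 for the single alanine gene, -1.005 for methionine, -0.79 for the urea cycle genes and for the tryptophan genes, -0.75 for tyrosine, -0.55 for histidine and for branched-chain genes and -0.33 for glycine and serine. The 10 measured hepatocyte markers, all genes of secreted plasma proteins, lay at -0.10 in that replicate, with summed intensities of 35308, 35910 and 33706 in livers 1, 2 and 3. Markers of other cell types were mostly highest there, 12 of 12 for macrophages, 8 of 11 for fibroblasts, 8 of 10 for lymphocytes, 6 of 7 for bile duct and 7 of 12 for endothelium. Over all features 5217 of 15143 were highest in liver replicate 3. Among the markers, 4 for endothelium and 2 for fibroblasts were lowest in that replicate. The macrophage markers lay at 0.92, with sums of 6008, 5989 and 10690, and the markers of fibroblasts and stellate cells at 1.19, with sums of 2383, 2063 and 5013. Lymphocyte markers lay at 0.72, bile duct markers at 0.80 and endothelial markers at 0.33, while the 4 measured acute phase genes lay at -0.50. The part of these cell types in the lower values of the 37 genes was not tested. Without liver replicate 3 the number of genes lower in cerebellum was 32 and the number higher was 2.

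**Figure D4:**
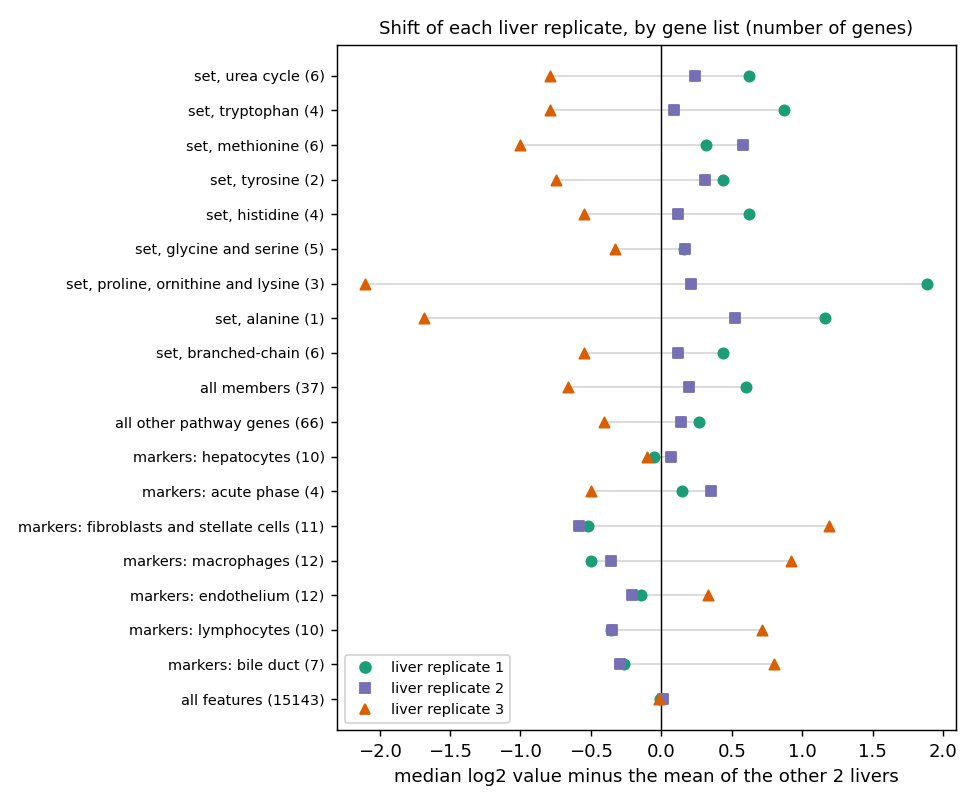
Shift of each liver replicate against the mean of the other 2 livers on the log2 scale, as the median over each gene list, with the number of measured genes in brackets. Replicate 3 lies lowest in all 9 pathways of the set, near 0 for hepatocyte plasma protein genes at -0.10, and highest for markers of fibroblasts, macrophages, endothelium, lymphocytes and bile duct. Most hepatocyte genes lie near the top of the shared value distribution, which limits how far they can shift.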

How the data were processed

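Total RNA was extracted with TRIzol, depleted of ribosomal RNA and labelled as sense-strand DNA with biotin, per the labels' protocols. The authors' deposited intensities are on a linear scale. The background method and probe summary were not given in the sources used here, but 93 values per array were below 0 and the sorted values of the 6 arrays were identical, as after quantile normalization. Such values cannot show a difference in total signal, and precision is limited by 3 arrays per tissue. Chimpanzee mismatches to the probes can alter levels, so levels of different genes were not ranked against each other. Statements that a gene lay above or below the array median or the pseudocount carry that limit too. The isozyme pairs were compared between tissues by their within-array difference, whose own sign and size carry that limit.

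Values below 0 were set to 0 and 16.8, the 10th percentile, was added before log2. Every feature was tested with limma 3.58.1 in R 4.3.3 (lmFit, eBayes, two-sided, Benjamini-Hochberg over 15143 features), without a block or filter, and the code was tested on simulated data. Genes were named from the platform annotation where it gave 1 symbol, by the feature with the highest mean. No measured gene of the set had more than 1 such feature. The genes, lists and tests were chosen with earlier results of these data known. Values per array are given for the largest difference of each pathway, genes higher in cerebellum, genes not called and isozyme pairs, and of the further genes for the largest called one in each direction. Of 7 planned isozyme pairs, 3 had both genes measured. Alternatives covered the replicate block, pseudocount, a filter on low values, scaling, test, prior, feature choice and leaving out each array. Sequences are not shown, as none were used here.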

Additional observations from a re-analysis of the deposited data

How the results depend on the processing

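Of the 37 genes, 24 kept their direction and their side of the threshold under all 17 alternatives that tested them, and 13 changed under at least 1. The number lower in cerebellum was 31. It ranged from 24 (limma's treat against a 2-fold difference) to 32 with array weights, and from 29 to 32 when 1 array was left out. With features of several symbols included it was 33 of 42 features. The number higher in cerebellum was 2. It was 1 without features of low mean, a filter that removes BCAT2 and PRODH2 from the test, 0 under treat, which ended the calls of MAT2A, BCAT2, CBS, UROC1, PRODH2, AASS, GPT, DBT and MCCC1, and from 1 to 2 when 1 array was left out. Including features with several symbols gave 3. The calls of CBS, AASS, DBT and MCCC1 were lost with arrays aligned on the general genes, with adjusted p from 0.0801 to 0.0883, an alignment that moves every difference toward cerebellum. At the 20th percentile as pseudocount AASS was lost (adjusted p = 0.0546). Signs turned only for genes that were not called. With array weights NAGS was 0.14 and HIBCH 0.078, and under the alignment on general genes NAGS was 0.38, HIBCH 0.31 and OAT 0.37. When 1 array was left out, NAGS ranged from -0.25 to 0.21, positive without cerebellum replicate 2 or liver replicate 1 (0.18), and HIBCH from -0.37 to 0.20, positive without the same arrays. OAT ranged from -0.76 without liver replicate 3 to 0.57, positive without cerebellum replicate 1 (0.23), liver replicate 1 or liver replicate 2 (0.012). The cause of these changes was not tested. With the replicate number as a block, 31 genes were lower and 2 higher. Deviations of same-numbered samples from their tissue means correlated at 0.11, 0.16 and -0.14 over features for replicates 1, 2 and 3. Not every sample correlated best with its own number. With 3 samples per tissue, whose deviations balance, these values cannot tell whether same-numbered samples share an animal. The labels do not state pairs, and the main fit did not use the numbers as pairs.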
